A study of Mus musculus with 12 samples.

Results

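The comparison described here is that of MLO-Y4 cells cultured at the 2-g position of a large superconducting magnet with cells cultured outside it. MLO-Y4 is a mouse cell line whose cells branch like osteocytes, the cells that sit inside bone matrix and sense its loading. A strong field with a steep gradient pulls on diamagnetic matter such as water and cells, and at the 2-g position this pull adds to gravity, so that the cells weigh more. The 2-g group comprised 3 arrays and the group called control, kept at normal earth gravity in the field of the earth, also 3, out of 12 arrays in all. The others are 3 arrays of μ-g, at the opposite gradient, where the pull offsets weight, and 3 of 1-g, at the field centre, where the field is strongest and has no gradient. Every group was kept in an incubated chamber for 48 h, and the labels name no drug. The control shares neither the field nor the bore of the magnet with 2-g, so field, force and place of culture cannot be told apart in this comparison. The cells are of 1 clonal line, immortalised by a large T antigen transgene of the mouse it came from, and the labels give the 3 samples of each group as biological replicates but name no separate cultures. The p-values therefore measure the spread between these samples, which may be technical.

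Levels are log2 signals of Affymetrix Mouse Gene 1.0 ST arrays after RMA, so that a difference of 1 is a doubling. All 19938 genes with a transcript cluster of their own were compared with limma, and rose and fell are used below for an adjusted p under 0.05 over all genes tested. In 2-g against control 335 genes (1.68%) rose and 285 (1.43%) fell, with a median size of 0.33 among them. Above 1.5-fold 50 rose and 19 fell, and above 2-fold 8 rose and 5 fell. At an unadjusted p under 0.05 in limma, 1724 of the 19938 genes were higher and 1615 lower. The 3 arrays of the groups did not overlap for any of the 620, and did not for 21.2% of all genes. With the replicate number as a block, since arrays of the same number deviated together, 1008 genes (5.06%) rose and 862 (4.32%) fell, the 620 among them. The 335 rises became 187 without 2-g replicate 2, 128 without control replicate 1, 101 without control replicate 3 and 91 without 2-g replicate 3, and the 285 falls became 107 without 2-g replicate 2, 76 without control replicate 1, 58 without control replicate 3 and 54 without 2-g replicate 3. A fit of the 6 arrays alone called 89 rises and 62 falls, 147 of them among the 620. Without any 1 of the 12 arrays 77 rises and 40 falls kept their call throughout. Among 7067 transcript clusters without a symbol of their own 59 (0.835%) passed. In such bulk samples fewer cells of a kind and less RNA per cell cannot be told apart, and the number of arrays limits the precision.

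**Figure D1:**
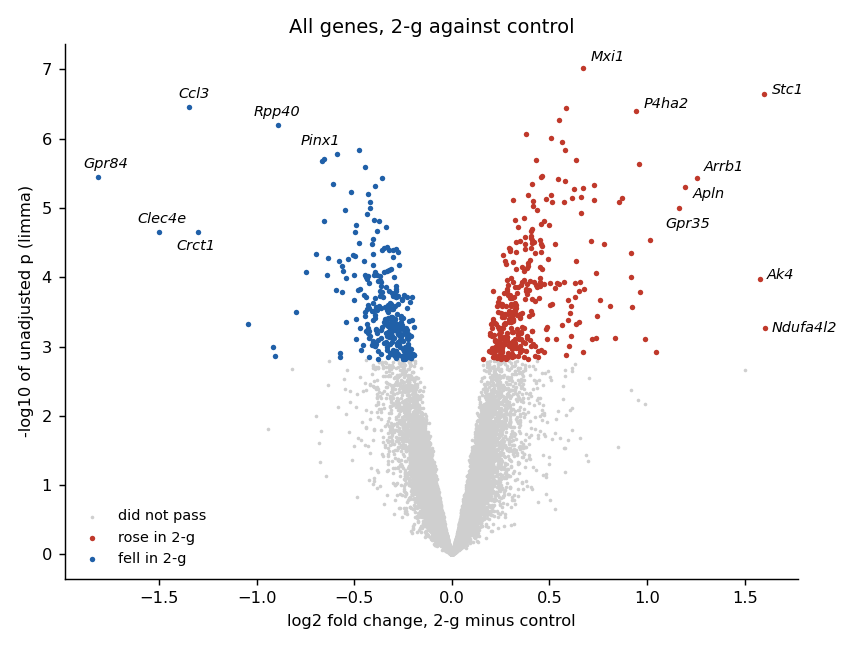
Log2 fold change of 2-g minus control (x axis) against −log10 of the unadjusted p of limma (y axis) for 19938 genes, with the 335 genes that rose in red, the 285 that fell in blue and the others in grey. Ndufa4l2, Stc1 and Ak4 lie furthest to the right and Gpr84, Clec4e and Ccl3 furthest to the left.

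Genes induced at low oxygen led the rises. In cells with enough oxygen, prolyl hydroxylases that use oxygen and 2-oxoglutarate mark the hypoxia-inducible factors (HIF) for degradation through VHL; at low oxygen the factors persist and induce genes of glucose uptake, glycolysis, mitochondrial remodelling and blood vessel growth. Osteocytes live at low oxygen within bone, and the pathway is known there for linking oxygen to vessel growth and matrix. Of 39 measured hypoxia response targets 14 rose, 0 fell and 25 did not pass, with a median log2 fold change of 0.44 (−0.0028 over all genes), and 22 rose and 1 fell (Tfrc) with the block. Several of these targets are named by the study as changed in these samples, so the count is not independent evidence of its direction. The 14 became 9 without 2-g replicate 1, 8 without 2-g replicate 2, 5 without 2-g replicate 3 or control replicate 1 and 3 without control replicate 3.

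Stc1 encodes stanniocalcin 1, a secreted glycoprotein of calcium and phosphate balance. Its levels were 9.66, 9.74 and 9.59 in 2-g, against 7.90, 8.53 and 7.76 in control. Each 2-g array lay more than a doubling above each control array, with control replicate 2 the closest, and the log2 fold change was 1.60 (SE 0.15, adjusted p = 0.00161). Apln encodes apelin, a peptide that acts on endothelial cells, and its levels were 10.86, 11.03 and 10.81 in 2-g, against 9.41, 10.17 and 9.53 in control, a change of 1.20 (SE 0.15, adjusted p = 0.00316). Adm, which encodes the vasodilator adrenomedullin, had 10.33, 10.55 and 10.25 in 2-g, against 9.10, 9.89 and 9.38 in control, a change of 0.92 (SE 0.16, adjusted p = 0.0129). For both peptides control replicate 2 again stood above the other control arrays. Vegfa, the best known HIF target among vessel growth factors, averaged 11.95 ± 0.08 in 2-g and 11.92 ± 0.02 in control (SD, n = 3 each), a difference of 0.03 (SE 0.05, adjusted p = 0.823). Stc2, the paralog of Stc1, had a difference of 0.17 (SE 0.10, adjusted p = 0.452). The calls of Stc1 and Apln held without any 1 of the 12 arrays. Adm lost the call without control replicate 3 (adjusted p = 0.0602). Stc1 and Apln passed with the 6 arrays alone, unlike the others.

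Transcripts of mitochondrial proteins of the low-oxygen response were high on every 2-g array and uneven in control. Ak4, an adenylate kinase of the mitochondrial matrix, had 11.42, 11.40 and 11.26 in 2-g, against 9.53, 10.47 and 9.34 in control. Ndufa4l2, a relative of a respiratory chain subunit that is induced at low oxygen, had 10.51, 11.02 and 10.44 in 2-g, against 8.94, 10.04 and 8.18 in control. Bnip3, an outer membrane protein of mitophagy, had 12.57, 12.66 and 12.50 in 2-g, against 11.78, 12.03 and 10.95 in control. In all 3 the control arrays spread by over 1 on the log2 scale, more than the 2-g arrays did, and the groups did not overlap. The log2 fold change of Ak4 was 1.58 (SE 0.28, adjusted p = 0.0135), that of Ndufa4l2 1.60 (SE 0.34, adjusted p = 0.0286) and that of Bnip3 0.99 (SE 0.22, adjusted p = 0.0338). Ndufa4, the subunit that Ndufa4l2 resembles, went the other way, with 11.45, 11.33 and 11.41 in 2-g, against 11.74, 11.77 and 11.88 in control, a change of −0.40 (SE 0.06, adjusted p = 0.0050). Its 2-g arrays all lay below its control arrays. Car9, a carbonic anhydrase of the cell surface, had a difference of 1.502 (SE 0.39, adjusted p = 0.0591), beside −0.19 for its paralog Car12, and passed with the block (adjusted p = 0.00454), as did Tmem45a at 0.99, Fam162a at 0.59, and Cox7a1 at 0.47 and Cox4i2 at 0.44, subunits of cytochrome oxidase. The call of Ndufa4 held without any 1 of the 12 arrays. Ndufa4l2 and Bnip3 lost their calls without 2-g replicate 1, 2 or 3 or control replicate 1 or 3 (adjusted p from 0.0544 to 0.106). Ak4 lost the call without 2-g replicate 3 or control replicate 1 or 3 (adjusted p from 0.0526 to 0.0626). Ndufa4 and Ak4 passed with the 6 arrays alone, unlike the others.

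Some regulators of the pathway rose as well. Egln3, an oxygen-sensing prolyl hydroxylase that HIF itself induces, had 7.40, 7.75 and 7.86 in 2-g, against 6.38, 7.01 and 6.87 in control, a change of 0.92 (SE 0.15, adjusted p = 0.00829). Egln1, the main hydroxylase of HIF-1α, had 11.13, 11.08 and 11.01 in 2-g, against 10.41, 10.67 and 9.86 in control, a change of 0.76 (SE 0.15, adjusted p = 0.018). Egln2, which HIF does not induce, differed by −0.02 (SE 0.06, adjusted p = 0.943). Hif1a and Epas1 encode the factors themselves, and Hif1a differed by 0.01 (SE 0.05, adjusted p = 0.943) and Epas1 by −0.09 (SE 0.06, adjusted p = 0.478), and their partner Arnt by 0.16 (SE 0.04, adjusted p = 0.055). Of the 10 HIF subunits and oxygen sensors these 2 hydroxylases rose and 0 fell, beside 3 and 0 with the block. Mxi1, a partner of MAX that opposes MYC, had 9.56, 9.76 and 9.68 in 2-g, against 8.95, 9.06 and 8.96 in control, a change of 0.67 (SE 0.06, adjusted p = 0.00161), and was the only one of 14 genes of the MYC, MAX and MXD network that passed. The arrays of Mxi1 lay close together within each group and far apart between them. Higd1a, a mitochondrial protein of low oxygen, rose by 0.74 (SE 0.15, adjusted p = 0.0236), Ankrd37 by 0.65 (SE 0.12, adjusted p = 0.0158), Zfp395 by 0.57 (SE 0.10, adjusted p = 0.0139), Rora, a clock receptor, by 0.38 (SE 0.08, adjusted p = 0.0326) and Ndrg1, a stress protein, by 0.26 (SE 0.06, adjusted p = 0.0428). Its paralog Ndrg2 differed by 0.70 (SE 0.31, adjusted p = 0.283). Tfrc, the transferrin receptor, was the lowest of the targets at −0.48 (SE 0.18, adjusted p = 0.191) and did not pass. The calls of Egln3 and Mxi1 held without any 1 of the 12 arrays. Egln1 lost the call without 2-g replicate 2 or 3 (adjusted p from 0.0558 to 0.064). Zfp395 lost the call without 2-g replicate 2 or control replicate 3 (adjusted p from 0.0504 to 0.0513). Ankrd37 lost the call without 2-g replicate 3 or control replicate 1 or 3 (adjusted p from 0.0642 to 0.0751). Higd1a lost the call without 2-g replicate 1, 2 or 3 or control replicate 1 or 3 (adjusted p from 0.0623 to 0.0704). Rora lost the call without 2-g replicate 1 or 3 or control replicate 1, 2 or 3 (adjusted p from 0.0532 to 0.133). Ndrg1 lost the call without any 1 array other than 1-g replicate 1 or 2 or μ-g replicate 2 (adjusted p from 0.0599 to 0.143). Mxi1 passed with the 6 arrays alone, unlike the others.

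Glucose uptake, glycolysis and glycogen genes rose in part. Several of them are named by the study as changed in these samples, so their counts are not independent evidence of direction. Of 23 measured genes of glucose uptake and glycolysis 5 rose and 0 fell (median 0.21), and 13 rose with the block; the 5 became 8 without control replicate 2, 3 without 2-g replicate 1, 2 or 3 and 2 without control replicate 1 or 3. Eno2, an enolase, had 10.71, 10.67 and 10.48 in 2-g, against 9.46, 9.97 and 9.80 in control, a change of 0.87 (SE 0.12, adjusted p = 0.00344). Slc16a3, which exports lactate, had 8.29, 8.19 and 8.12 in 2-g, against 7.37, 7.60 and 7.45 in control, a change of 0.73 (SE 0.09, adjusted p = 0.00316). Neither overlapped with control. Pfkl, a phosphofructokinase, rose by 0.81 (SE 0.16, adjusted p = 0.0199), Slc2a1, the glucose transporter GLUT1, by 0.47 (SE 0.08, adjusted p = 0.0141) and Pgam1, a phosphoglycerate mutase, by 0.31 (SE 0.07, adjusted p = 0.0307). The isozymes of the same step, Pfkp with a difference of 0.58 and Pfkm with 0.28, passed only with the block, and the enolase Eno3 differed by −0.07, the aldolase Aldoc by 0.41 and the hexokinase Hk2 by 0.21. The abundant enzymes Ldha, at 0.24, Pgk1, at 0.27, Aldoa, at 0.18, and Pkm, at 0.17, did not pass. Gys1, glycogen synthase of muscle type, had 12.11, 12.12 and 12.01 in 2-g, against 11.46, 11.58 and 11.29 in control, a change of 0.64 (SE 0.07, adjusted p = 0.00247), and its groups were far apart. Pgm1, which links the phosphates of glucose, rose by 0.61 (SE 0.12, adjusted p = 0.0197) and Ppp1r3c, which brings a phosphatase to glycogen, by 0.51 (SE 0.10, adjusted p = 0.0196), so that 3 of 21 glycogen genes rose and 0 fell (6 rose with the block). Pdk1, a kinase that inhibits pyruvate dehydrogenase, had 9.97, 10.19 and 10.07 in 2-g, against 9.38, 9.45 and 8.27 in control, a change of 1.04 (SE 0.25, adjusted p = 0.0431), with control replicate 3 far below the other control arrays. Mpc1, a subunit of the mitochondrial pyruvate carrier, fell by 0.27 (SE 0.06, adjusted p = 0.0389), and of 20 genes of the TCA cycle 0 passed. The calls of Eno2, Slc16a3 and Gys1 held without any 1 of the 12 arrays. Pfkl and Pgam1 lost their calls without 2-g replicate 1, 2 or 3 or control replicate 1 or 3 (adjusted p from 0.0507 to 0.109). Slc2a1 lost the call without control replicate 1 or 3 (adjusted p from 0.0621 to 0.0689). Pgm1 lost the call without 2-g replicate 1, 2 or 3 (adjusted p from 0.0509 to 0.0684). Ppp1r3c lost the call without 2-g replicate 2 or 3 or control replicate 1 (adjusted p from 0.0512 to 0.093). Mpc1 lost the call without 2-g replicate 2 or 3, control replicate 1 or 3 or 1-g replicate 1 or 3 (adjusted p from 0.0502 to 0.149). Pdk1 lost the call without any 1 array other than control replicate 2 or 3 or μ-g replicate 2 (adjusted p from 0.0513 to 0.137). Eno2, Slc16a3, Gys1 and Slc2a1 passed with the 6 arrays alone, unlike the others.

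**Figure D2:**
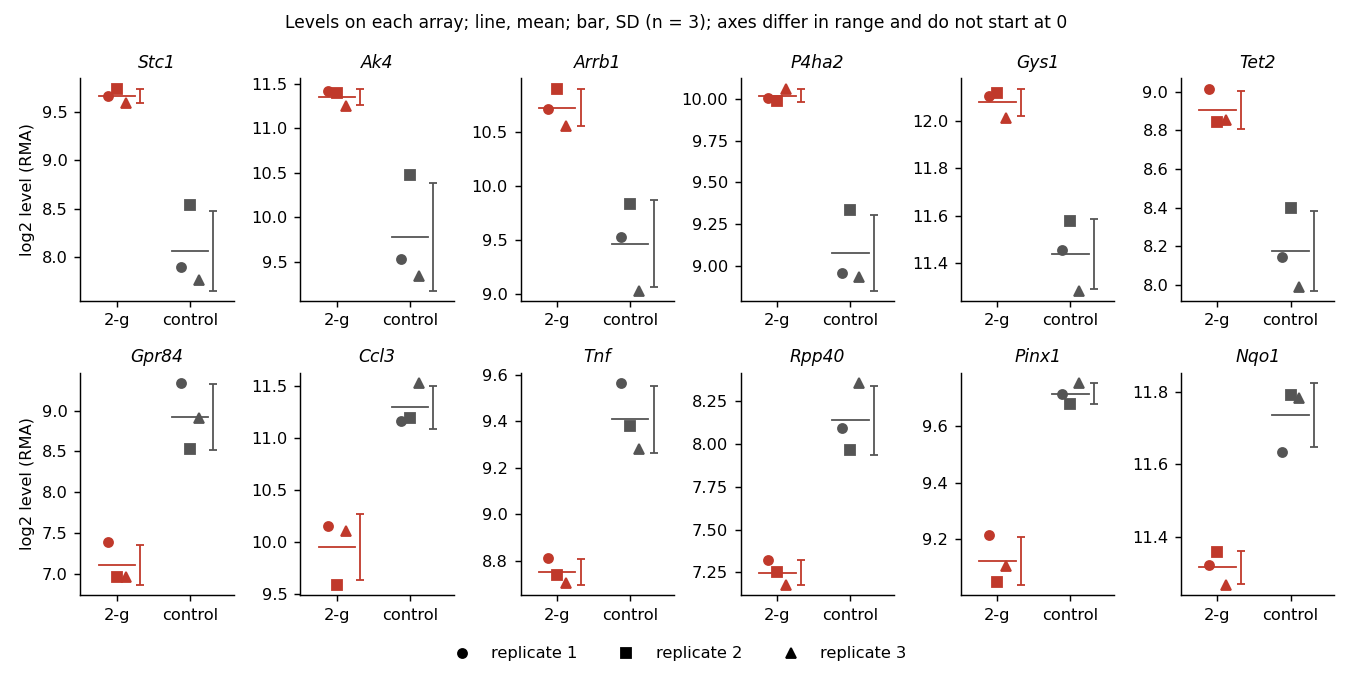
Log2 level on each array (y axis, a range of its own in each panel) of 6 genes that rose and 6 that fell, with the 3 arrays of 2-g in red at the left and those of control in grey at the right. Lines are means, bars are SD (n = 3) and marker shapes give the replicate number; in no panel do the groups overlap, and control replicate 2 is the highest control array in the 6 upper panels.

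HIF binds DNA at the core letters ACGTG or GCGTG, which were counted in the reference sequence around the starts of the genes that changed. Promoter windows of RefSeq (mouse build GRCm38.p6, 250 bases before to 50 after each start) were found for 37 of the 50 genes that rose over 1.5-fold and 14 of the 19 that fell. Of 45 windows of the risen genes 31 (68.9%) hold ACGTG or GCGTG on either strand, against 5 of 16 windows (31.2%) of the fallen genes and 43.8% of all 32851 windows. The median GC content was 64% for windows of the risen genes, 50.5% for those of the fallen genes and 52.7% for all, and its part in these shares was not tested. The letters TGANTCA of the AP-1 factors stand in 1 window (2.22%) of the risen genes and 1 (6.25%) of the fallen genes, against 7.81% of all. A match of letters is a description and not a bound site. The stretches below, 5′ to 3′ on the strand of the gene, are shown for 4 genes that rose and for Ccl3, which fell, with ACGTG or GCGTG of either strand in capitals (read on the other strand as CACGT or CACGC).
Bnip3, chr7:138909522-138909638, minus strand: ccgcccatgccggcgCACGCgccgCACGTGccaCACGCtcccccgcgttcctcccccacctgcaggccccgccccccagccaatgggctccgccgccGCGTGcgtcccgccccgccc
Egln1, chr8:124949303-124949395, minus strand: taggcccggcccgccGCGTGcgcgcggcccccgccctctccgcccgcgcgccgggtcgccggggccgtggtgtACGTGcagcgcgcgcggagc
P4ha2, chr11:54100802-54100874, plus strand: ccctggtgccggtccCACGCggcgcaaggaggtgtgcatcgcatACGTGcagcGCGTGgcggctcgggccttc
Slc16a3, chr11:120949025-120949066, plus strand: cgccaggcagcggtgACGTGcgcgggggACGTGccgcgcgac
Ccl3, chr11:83649379-83649438, minus strand: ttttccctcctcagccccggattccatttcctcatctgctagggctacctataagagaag
All stretches lie upstream of the annotated start. The Ccl3 window holds none of these letters, and those of Apln, Eno2 and Gys1, which rose, hold none either.

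Genes of several enzymes that hydroxylate and crosslink collagen rose, and so did those of some collagen chains. Collagen gains its stability from prolyl and lysyl hydroxylases, which need oxygen, iron and 2-oxoglutarate, and several of them are also induced at low oxygen. Of 23 measured genes of this kind 7 rose and 0 fell (median 0.20), and 12 rose with the block. The 7 became 4 without 2-g replicate 2 or control replicate 1 or 3 and 3 without 2-g replicate 3. P4ha1, P4ha2, P4ha3 and Plod2 are named by the study as changed in this comparison, so the count is not independent evidence of its direction. P4ha2, a catalytic subunit of prolyl 4-hydroxylase, had 10.01, 9.99 and 10.06 in 2-g, against 8.96, 9.34 and 8.93 in control, a change of 0.95 (SE 0.09, adjusted p = 0.00161). P4ha1, its main paralog, had 11.40, 11.59 and 11.43 in 2-g, against 10.53, 10.73 and 10.29 in control, a change of 0.96 (SE 0.11, adjusted p = 0.00253). Plod2, a lysyl hydroxylase of crosslinking telopeptides, had 11.50, 11.57 and 11.57 in 2-g, against 10.97, 10.98 and 10.67 in control, a change of 0.67 (SE 0.09, adjusted p = 0.00316). The lowest 2-g array of each lay above its highest control array by more than the 2-g arrays differed among themselves. The others that rose were the prolyl hydroxylases P4ha3, by 0.61 (SE 0.14, adjusted p = 0.0326), and P3h3, by 0.24 (SE 0.05, adjusted p = 0.0281), and the lysyl hydroxylases Plod1, by 0.39 (SE 0.07, adjusted p = 0.010), and Plod3, by 0.21 (SE 0.05, adjusted p = 0.040). The β subunit P4hb, at 0.18, and the crosslinking enzyme Lox, at 0.29, passed only with the block, and the collagen chaperone Serpinh1, at 0.19, did not pass either way. The calls of P4ha2, P4ha1 and Plod2 held without any 1 of the 12 arrays. Plod1 lost the call without 2-g replicate 3 (adjusted p = 0.0546). P4ha3 lost the call without 2-g replicate 2 or 3 or control replicate 1 or 3 (adjusted p from 0.0933 to 0.133). P3h3 lost the call without 2-g replicate 1, 2 or 3 or control replicate 1 or 3 (adjusted p from 0.0644 to 0.12). Plod3 lost the call without any 1 array other than μ-g replicate 2 or 3 (adjusted p from 0.0511 to 0.142). P4ha2, P4ha1, Plod2 and Plod1 passed with the 6 arrays alone, unlike the others.

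Of 44 collagen chains 5 rose and 0 fell, with a median of 0.04. Several genes of this paragraph, such as Col3a1, Col6a3, Sned1 and Adamts5, are named by the study as changed in this comparison. The counts below are thus not independent evidence of direction either. Col3a1 had 8.89, 9.21 and 9.20 in 2-g, against 8.14, 8.75 and 8.39 in control, a change of 0.67 (SE 0.16, adjusted p = 0.0437). The chains of collagen VI, which forms microfibrils around cells, also rose, Col6a1 by 0.55 (SE 0.10, adjusted p = 0.0143), Col6a2 by 0.47 (SE 0.11, adjusted p = 0.0432) and Col6a3 by 0.59 (SE 0.11, adjusted p = 0.0179). Col1a1 rose by 0.41 (SE 0.08, adjusted p = 0.0177), while Col1a2, the other chain of collagen I, averaged 7.62 ± 0.01 in 2-g and 7.62 ± 0.04 in control. Among 51 other matrix proteins and proteoglycans 3 rose and 0 fell (21 and 1 with the block), with a median of 0.18 and 41 above zero. They were Sned1, a secreted matrix protein, at 0.83 (SE 0.19, adjusted p = 0.0336), Cd248, a receptor of stromal cells, at 0.63 (SE 0.13, adjusted p = 0.0267), and Igsf10 at 0.61 (SE 0.12, adjusted p = 0.0222). Of 31 matrix proteases and inhibitors 3 rose and 2 fell (12 and 4 with the block). The serine protease Htra4 rose by 0.74 (SE 0.17, adjusted p = 0.0336) and the aggrecanases Adamts5 by 0.66 (SE 0.12, adjusted p = 0.0139) and Adamts4 by 0.38 (SE 0.07, adjusted p = 0.0158). Ctsk, the collagen-degrading cathepsin, fell, at −0.50 (SE 0.10, adjusted p = 0.0179), and so did Cpm, a membrane carboxypeptidase, at −0.56 (SE 0.10, adjusted p = 0.0119), while the collagenase Mmp13 had a difference of 0.60 (SE 0.19, adjusted p = 0.117). None of these calls of chains, other matrix proteins and proteases held without each array in turn. Col6a1, Col6a3, Cd248, Igsf10, Adamts5 and Ctsk lost their calls without 2-g replicate 2 or 3 or control replicate 1 or 3 (adjusted p from 0.0501 to 0.114). Cpm lost the call without control replicate 3 (adjusted p = 0.0536). Adamts4 lost the call without 2-g replicate 3 or control replicate 1 (adjusted p from 0.0642 to 0.0689). Col1a1 lost the call without 2-g replicate 3 or control replicate 1 or 3 (adjusted p from 0.0682 to 0.0858). Htra4 lost the call without 2-g replicate 2 or 3, control replicate 1 or μ-g replicate 1 (adjusted p from 0.050 to 0.137). Sned1 lost the call without 2-g replicate 1, 2 or 3 or control replicate 1, 2 or 3 (adjusted p from 0.0596 to 0.146). Col3a1 lost the call without any 1 array other than 2-g replicate 1, control replicate 2, 1-g replicate 1 or μ-g replicate 1 or 2 (adjusted p from 0.0518 to 0.168). Col6a2 lost the call without any 1 array other than 2-g replicate 1, control replicate 2, 1-g replicate 3 or μ-g replicate 2 (adjusted p from 0.0502 to 0.146). Cd248 and Adamts4 passed with the 6 arrays alone, unlike the others.

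Genes of several dioxygenases that act on chromatin and RNA rose. These JmjC, TET and AlkB proteins remove methyl groups from histones, DNA or RNA with the same cofactors, oxygen and 2-oxoglutarate, as the collagen and HIF hydroxylases. Of 27 measured 8 rose and 0 fell (median 0.19), and 13 rose with the block. The 8 became 5 without 2-g replicate 2 or control replicate 1 or 3. Tet2, Kdm4b and Kdm5b are named by the study as changed in this comparison, so the count is not independent evidence of its direction. Tet2, which oxidises 5-methylcytosine, had 9.02, 8.84 and 8.85 in 2-g, against 8.15, 8.40 and 7.99 in control, a change of 0.73 (SE 0.10, adjusted p = 0.00344). Kdm4b, a demethylase of histone H3 lysine 9, had 9.60, 9.66 and 9.49 in 2-g, against 8.75, 9.10 and 8.92 in control, a change of 0.66 (SE 0.09, adjusted p = 0.00344). Kdm5b, a demethylase of histone H3 lysine 4, had 8.33, 8.01 and 8.28 in 2-g, against 7.43, 7.69 and 7.51 in control, a change of 0.66 (SE 0.09, adjusted p = 0.00441). None of these groups overlapped, and the 2-g arrays differed among themselves by less than the groups did. The histone demethylases Kdm2a, at 0.50 (SE 0.07, adjusted p = 0.00552), Kdm3a, at 0.56 (SE 0.12, adjusted p = 0.0269), and Kdm5c, at 0.26 (SE 0.05, adjusted p = 0.0196), the hydroxylase Jmjd6, at 0.54 (SE 0.10, adjusted p = 0.014), and the RNA demethylase Alkbh5, at 0.39 (SE 0.05, adjusted p = 0.00344), made up the 8. Of their paralogs Tet3, at 0.30, passed only with the block, and Tet1, at 0.11, Kdm4a, at −0.14, and Kdm5a, at 0.26, did not pass either way. The calls of Tet2, Kdm4b, Kdm5b, Kdm2a and Alkbh5 held without any 1 of the 12 arrays. Jmjd6 lost the call without 2-g replicate 2 or control replicate 1 or 3 (adjusted p from 0.0504 to 0.0684). Kdm3a lost the call without 2-g replicate 2 or 3 or control replicate 1 or 3 (adjusted p from 0.0818 to 0.117). Kdm5c lost the call without 2-g replicate 1, 2 or 3 or control replicate 1 or 3 (adjusted p from 0.0525 to 0.0867). Tet2, Kdm4b, Kdm5b, Kdm2a and Alkbh5 passed with the 6 arrays alone, unlike the others.

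Genes of receptors coupled to G proteins and of their desensitising partners held some of the largest changes in both directions. Gpr35 and Gpr84 are named by the study as changed in these samples, so the counts of this list are not independent evidence. Arrb1, β-arrestin 1, which uncouples and internalises such receptors, had 10.71, 10.90 and 10.55 in 2-g, against 9.53, 9.83 and 9.03 in control, a change of 1.25 (SE 0.16, adjusted p = 0.00305). Gpr35, a receptor of the gut and immune cells, had 9.91, 9.76 and 9.70 in 2-g, against 8.71, 8.96 and 8.20 in control, a change of 1.17 (SE 0.16, adjusted p = 0.00395). In both, all 2-g arrays exceeded the highest control array by more than they differed among themselves. Arrb2, the other β-arrestin, differed by −0.15 (SE 0.07, adjusted p = 0.289). Grk5, a receptor kinase, rose by 0.39 (SE 0.07, adjusted p = 0.0157) and S1pr3, a receptor of sphingosine phosphate, by 0.72 (SE 0.16, adjusted p = 0.0338), so that of 26 genes of this list 4 rose and 1 fell. The fall was that of Gpr84, a receptor of medium-chain fatty acids on macrophages and neutrophils, with 7.40, 6.97 and 6.97 in 2-g, against 9.34, 8.53 and 8.91 in control. The groups lay over 1 apart at their closest, and the change of −1.81 (SE 0.22, adjusted p = 0.00305) was the largest fall of all genes that passed. The calls of Arrb1, Gpr35 and Gpr84 held without any 1 of the 12 arrays. Grk5 lost the call without 2-g replicate 3 or control replicate 1 or 3 (adjusted p from 0.0582 to 0.0794). S1pr3 lost the call without 2-g replicate 2 or 3, control replicate 1 or 3 or μ-g replicate 3 (adjusted p from 0.0504 to 0.127). Arrb1, Gpr35, Gpr84 and Grk5 passed with the 6 arrays alone, unlike the others.

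A minority of the genes of innate sensing and inflammation fell, some of them by large amounts. Osteocytes use such cytokines to recruit and instruct osteoclasts. Of 35 pattern and scavenger receptors and alarmins 6 fell and 0 rose (3 rose and 7 fell with the block), of 27 cytokines and growth factors 4 fell and 1 rose, and of 34 chemokines 2 fell and 0 rose (1 rose and 5 fell with the block). The 6 receptors and alarmins became 3 without control replicate 1 and 2 without 2-g replicate 3 and the 4 cytokines 2 without 2-g replicate 1, 2 or 3 or control replicate 1 or 3. Several of these genes, such as Tnf, Il1rn, S100b and Clec4e, are named by the study as changed in this comparison. The counts are thus not independent evidence of their direction. Clec4e, the lectin Mincle that binds glycolipids and dead cells, had 8.21, 7.55 and 7.71 in 2-g, against 9.65, 8.995 and 9.32 in control, a change of −1.501 (SE 0.22, adjusted p = 0.00617). Ccl3, a chemokine for monocytes and osteoclast precursors, had 10.16, 9.59 and 10.11 in 2-g, against 11.17, 11.19 and 11.53 in control, a change of −1.34 (SE 0.13, adjusted p = 0.00161). Tnf, an inflammatory cytokine that promotes resorption, had 8.81, 8.74 and 8.71 in 2-g, against 9.57, 9.38 and 9.28 in control, a change of −0.66 (SE 0.08, adjusted p = 0.00247). In each of the 3 the highest 2-g array lay below the lowest control array. Il1rn, the antagonist of the IL-1 receptor, had 7.36, 7.30 and 7.32 in 2-g, against 7.86, 8.03 and 8.08 in control, a change of −0.67 (SE 0.08, adjusted p = 0.00247). Socs2, a feedback inhibitor of growth hormone and cytokine signalling, had 7.74, 7.50 and 7.79 in 2-g, against 8.40, 8.17 and 8.53 in control, a change of −0.69 (SE 0.11, adjusted p = 0.0085), and was the only one of 8 SOCS genes that passed. S100b, a calcium-binding protein that can act as an alarmin, fell by 0.66 (SE 0.09, adjusted p = 0.0050). These genes thus include inducers and inhibitors of inflammation.

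Other falls of this kind were smaller or less even. Clec4d, a lectin related to Clec4e, changed by −0.74 (SE 0.13, adjusted p = 0.012), the alarmin S100a8 by −0.64 (SE 0.11, adjusted p = 0.0127), Tlr2, a receptor of bacterial lipoproteins, by −0.40 (SE 0.08, adjusted p = 0.0193) and the inflammasome sensor Nlrp3 by −0.54 (SE 0.11, adjusted p = 0.0259). Csf3, which drives granulocyte production, changed by −0.91 (SE 0.22, adjusted p = 0.0466), Il6 by −0.29 (SE 0.06, adjusted p = 0.0246) and the neutrophil chemokine Cxcl1 by −0.33 (SE 0.07, adjusted p = 0.0306). Tnfsf9, a costimulatory ligand, rose, by 0.49 (SE 0.11, adjusted p = 0.0338). S100a9, the partner of S100a8, averaged 5.99 ± 0.07 in 2-g and 6.04 ± 0.01 in control, Lcn2, which binds bacterial siderophores, differed by −0.06, Il1b by −0.16 and Ccl2 by −0.11. Il10, an inhibitory cytokine, at 0.63, and the chemokine Cxcl2, at −0.39, passed only with the block. Among enzymes of nitric oxide and arginine use Nos2 rose by 0.32 (SE 0.07, adjusted p = 0.0361), and Arg2, a mitochondrial arginase, fell, at −0.91 (SE 0.21, adjusted p = 0.0391), as did Odc1, of polyamine synthesis, at −0.53 (SE 0.09, adjusted p = 0.00951). Gch1, which makes the cofactor of nitric oxide synthases, had 7.93, 7.76 and 7.60 in 2-g, against 8.55, 8.15 and 8.49 in control, a change of −0.63 (SE 0.10, adjusted p = 0.00924). Its groups did not overlap. Of 24 NF-kB subunits and inhibitors Bcl3 at 0.31 rose and Nfkbib at −0.30 fell. The calls of Clec4e, Ccl3, Tnf, Il1rn, Socs2 and S100b held without any 1 of the 12 arrays. Odc1 and Gch1 lost their calls without control replicate 3 (adjusted p from 0.0502 to 0.0505). Tlr2 and Cxcl1 lost their calls without 2-g replicate 2 or 3 or control replicate 1 or 3 (adjusted p from 0.0648 to 0.114). S100a8 lost the call without 2-g replicate 3 (adjusted p = 0.064). Clec4d lost the call without 2-g replicate 3 or control replicate 1 or 3 (adjusted p from 0.0532 to 0.0586). Nlrp3 lost the call without 2-g replicate 2 or 3 or control replicate 1 (adjusted p from 0.0693 to 0.0842). Il6 lost the call without 2-g replicate 1, 2 or 3 or control replicate 1, 2 or 3 (adjusted p from 0.0506 to 0.0864). Tnfsf9 lost the call without 2-g replicate 1, 2 or 3, control replicate 1 or 3 or μ-g replicate 3 (adjusted p from 0.0504 to 0.107). Nfkbib lost the call without 2-g replicate 2 or 3 or control replicate 1 or 3 (adjusted p from 0.0635 to 0.106). Bcl3 lost the call without any 1 array other than control replicate 3 (adjusted p from 0.0526 to 0.179). Csf3 lost the call without any 1 array other than control replicate 2, 1-g replicate 3 or μ-g replicate 2 or 3 (adjusted p from 0.0509 to 0.171). Nos2 lost the call without any 1 array other than 2-g replicate 2, 1-g replicate 2 or 3 or μ-g replicate 2 (adjusted p from 0.0502 to 0.157). Arg2 lost the call without any 1 array other than control replicate 1, 1-g replicate 2 or 3 or μ-g replicate 2 (adjusted p from 0.0507 to 0.105). Clec4e, Ccl3, Tnf, Il1rn, Socs2, S100b, Clec4d and S100a8 passed with the 6 arrays alone, unlike the others.

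Antioxidant genes of the factor NRF2 fell in part. Of 44 measured 6 fell and 0 rose, beside 10 falls and 3 rises with the block, and the 6 became 3 without 2-g replicate 2, 2 without 2-g replicate 3 and 1 without control replicate 1 or 3. Nqo1, a quinone reductase, had 11.32, 11.36 and 11.27 in 2-g, against 11.63, 11.79 and 11.78 in control, a change of −0.42 (SE 0.06, adjusted p = 0.00395). All 2-g arrays lay below all control arrays. Txnrd1, which reduces thioredoxin, changed by −0.38 (SE 0.07, adjusted p = 0.0127), Srxn1, which repairs peroxiredoxins, by −0.35 (SE 0.06, adjusted p = 0.012) and Osgin1 by −0.34 (SE 0.07, adjusted p = 0.020). Of glutathione synthesis, Gss changed by −0.25 (SE 0.06, adjusted p = 0.0468) and Gclm by −0.23 (SE 0.05, adjusted p = 0.0321). Hmox1, which HIF also induces in some cells, differed by −0.17 (SE 0.07, adjusted p = 0.241). Of 28 iron genes 3 fell and 0 rose: Steap1, a metalloreductase, at −0.27 (SE 0.04, adjusted p = 0.00829), Slc11a2, the iron transporter DMT1, at −0.23 (SE 0.04, adjusted p = 0.0172), and Ncoa4, which takes ferritin to lysosomes, at −0.26 (SE 0.06, adjusted p = 0.0464). The calls of Nqo1 and Steap1 held without any 1 of the 12 arrays. Srxn1 lost the call without control replicate 1 or 3 (adjusted p from 0.0532 to 0.0565). Txnrd1 lost the call without 2-g replicate 3 or control replicate 1 or 3 (adjusted p from 0.0541 to 0.0568). Slc11a2 lost the call without 2-g replicate 2 or 3 or control replicate 3 (adjusted p from 0.0541 to 0.0778). Osgin1 lost the call without 2-g replicate 2 or 3 or control replicate 1 or 3 (adjusted p from 0.054 to 0.092). Gclm lost the call without 2-g replicate 1, 2 or 3 or control replicate 1, 2 or 3 (adjusted p from 0.0523 to 0.141). Ncoa4 lost the call without any 1 array other than μ-g replicate 2 or 3 (adjusted p from 0.0571 to 0.148). Gss lost the call with any 1 of the 12 arrays left out (adjusted p from 0.0542 to 0.194). Nqo1 passed with the 6 arrays alone, unlike the others.

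The broadest group among the falls was that of ribosome assembly. Ribosomal RNA is made, cut, modified and packed with proteins in the nucleolus by many factors that are not part of the finished ribosome, many of them under control of MYC. A list of 133 such genes, selected by symbol after the falls had been seen, held 45 falls and 0 rises, 76 falls with the block, and 128 values below zero. Its median was −0.25 (−0.0028 over all genes). Since the list was put together with these values known, its counts describe it and are not evidence of its direction. The 45 became 17 without 2-g replicate 2 and 12 without 2-g replicate 3 or control replicate 1 or 3, and the median ran from −0.28 to −0.22 over these fits. Pinx1, a nucleolar protein that also binds telomerase, had 9.22, 9.05 and 9.11 in 2-g, against 9.71, 9.68 and 9.75 in control, a change of −0.59 (SE 0.07, adjusted p = 0.00247). Utp18, of the small subunit processome, had 9.39, 9.28 and 9.17 in 2-g, against 9.80, 9.66 and 9.84 in control, a change of −0.49 (SE 0.07, adjusted p = 0.00552). Ccdc86, a nucleolar protein, had 10.15, 10.07 and 10.09 in 2-g, against 10.53, 10.57 and 10.63 in control, a change of −0.47 (SE 0.05, adjusted p = 0.00246). The shifts were small, but the arrays of each group lay closer to each other than to those of the other group. Grwd1, a histone chaperone that binds ribosomal proteins, changed by −0.50 (SE 0.07, adjusted p = 0.00617), Pno1, of small subunit assembly, by −0.48 (SE 0.07, adjusted p = 0.00741), and Pwp2, of the same processome as Utp18, by −0.48 (SE 0.09, adjusted p = 0.0157). Of the abundant nucleolar proteins, fibrillarin (Fbl) differed by −0.20 (SE 0.08, adjusted p = 0.221), nucleophosmin (Npm1) by −0.17 (SE 0.06, adjusted p = 0.14), and nucleolin (Ncl) by −0.25 (SE 0.10, adjusted p = 0.224). The exceptions above zero were 5 genes, with Nop53 the highest at 0.15. Myc, the factor that drives many of these genes, differed by −0.09 (SE 0.06, adjusted p = 0.526). The calls of Pinx1, Utp18, Ccdc86, Grwd1 and Pno1 held without any 1 of the 12 arrays. Pwp2 lost the call without 2-g replicate 2 or 3 or control replicate 1 or 3 (adjusted p from 0.0566 to 0.0704). All of these but Grwd1 passed with the 6 arrays alone.

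**Figure D3:**
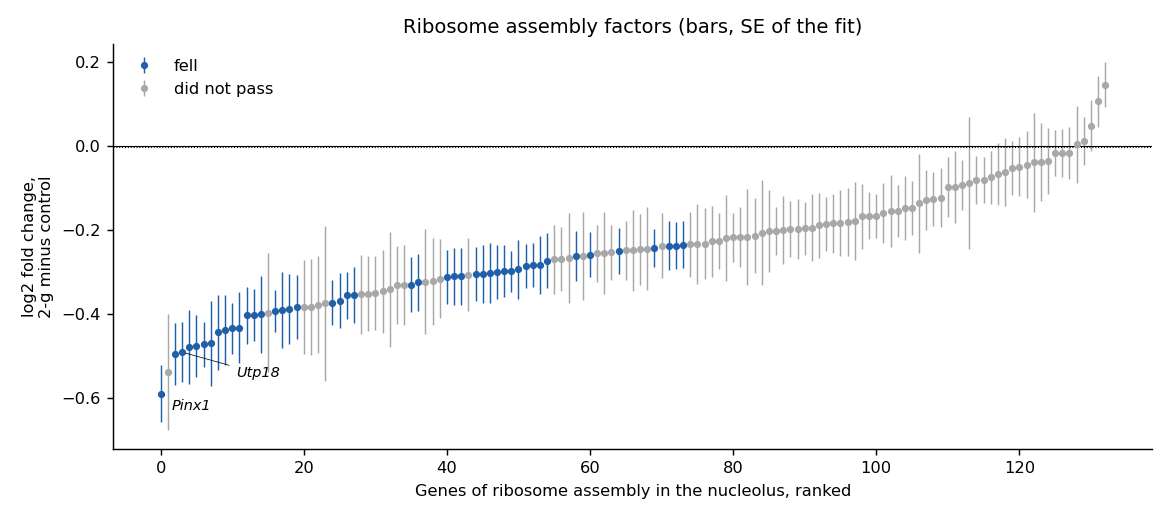
Log2 fold change of 2-g minus control (y axis) of 133 ribosome assembly genes ranked from lowest to highest (x axis), with bars for the SE of the fit. The 45 genes that fell are blue, and 128 of the 133 lie below zero.

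The windows around the starts of these 45 genes were searched for CACGTG, the E-box that MYC and MAX bind and which holds the letters ACGTG of the HIF core. Windows were found for 39 of them, and 10 of 42 (23.8%) hold it, against 7.15% of all windows and 8.89% of those of the genes that rose over 1.5-fold. ACGTG or GCGTG stand in 71.4% of the windows of these fallen genes, a share no lower than in those of the risen genes. Median GC content was 59.8% for the windows of these fallen genes and 52.7% for all, and its part in these shares was not tested. The search was chosen after the falls were seen, and the match is of letters. The stretch before the start of Utp18, with the E-box in capitals, is shown as an example.
Utp18, chr11:93885767-93885801, minus strand: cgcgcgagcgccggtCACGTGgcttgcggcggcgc

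Genes of some proteins that cut and trim RNA, make nucleotides or start translation fell as well. Rpp40, a protein of RNase P and RNase MRP, which cut precursors of transfer and ribosomal RNA, had 7.32, 7.25 and 7.18 in 2-g, against 8.09, 7.96 and 8.35 in control, a change of −0.89 (SE 0.09, adjusted p = 0.00181). It was the largest fall among these groups, with each 2-g array below each control array by more than the spread within either group. Of 23 genes of RNase P, RNase MRP and the RNA exosome 6 fell and 0 rose (10 fell with the block), the others being the exosome subunits Exosc5 at −0.44, Exosc1 at −0.39, Exosc4 at −0.37 and Exosc2 at −0.27, and Pop4 of RNase P at −0.27. Of 30 genes of nucleotide synthesis 7 fell and 0 rose (12 and 2 with the block), with 25 below zero. They included Shmt1, of one-carbon supply, at −0.29 (SE 0.05, adjusted p = 0.00788), the folate enzyme Fpgs at −0.43, and Nme1 at −0.32, Uck1 at −0.29, Adsl at −0.25 and Aprt at −0.25, which make or salvage nucleotides. Of 49 genes named as translation initiation factors 3 fell and 0 rose (8 and 1 with the block), and 38 lay below zero. The 3 were Eif2b3, of the exchange factor for eIF2, at −0.50 (SE 0.08, adjusted p = 0.00893), Eif1a at −0.40 and Eif4a3 at −0.28. Eif4a3 is an initiation factor by name only. Of 14 subunits of RNA polymerases I and III 2 fell, Polr1b at −0.40 (SE 0.08, adjusted p = 0.0251) and Polr3f at −0.26 (SE 0.06, adjusted p = 0.0331). These 4 lists were also put together after the values were seen. Of 61 ribosomal proteins of the cytosol, by contrast, 1 fell and 0 rose, with a median of −0.02, and the 1 was Rpl12 at −0.25 (SE 0.05, adjusted p = 0.029). The 18 aminoacyl-tRNA synthetases all lay below zero (median −0.15, from −0.01 for Qars to −0.38 for Wars), but 0 passed, 8 had an unadjusted p under 0.05 and 4 passed with the block. The 6 exosome and RNase calls became 2 without control replicate 1 and 1 without 2-g replicate 3 or control replicate 3, the 7 of nucleotide synthesis 2 without 2-g replicate 2 or control replicate 1 and 1 without 2-g replicate 3 or control replicate 3, and the 3 initiation factors 5 without control replicate 2, 1 without 2-g replicate 2 or control replicate 1 or 3 and 0 without 2-g replicate 3. Fpgs, Nme1, Uck1, Adsl, Aprt, Eif1a and Eif4a3 each lost the call without at least 1 of the arrays other than 1-g replicate 2 or μ-g replicate 1 or 2 (adjusted p from 0.0538 to 0.153), and Eif1a alone of them passed with the 6 arrays. The calls of Rpp40 and Shmt1 held without any 1 of the 12 arrays. Polr1b and Polr3f lost their calls without 2-g replicate 2 or 3 or control replicate 1 or 3 (adjusted p from 0.0633 to 0.141). Eif2b3 lost the call without 2-g replicate 3 (adjusted p = 0.0525). Rpl12 lost the call without 2-g replicate 1, 2 or 3 or control replicate 1 or 3 (adjusted p from 0.0541 to 0.12). Rpp40, Shmt1 and Eif2b3 passed with the 6 arrays alone, unlike Polr1b, Polr3f and Rpl12.

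Transcripts of mitochondrial proteins encoded in the nucleus leaned downward by small amounts. Of 77 mitochondrial ribosomal proteins 6 fell and 0 rose, 24 fell with the block, and 72 lay below zero, with a median of −0.14. Mrpl2, of the large subunit, had 9.40, 9.34 and 9.39 in 2-g, against 9.71, 9.63 and 9.79 in control, a change of −0.33 (SE 0.05, adjusted p = 0.00782). The groups did not overlap. The others were Mrpl22 at −0.45, Mrps18b at −0.37, Mrpl55 at −0.33, Mrpl11 at −0.26 and Mrpl3 at −0.22. The 6 became 3 without control replicate 1 and 1 without 2-g replicate 3 or control replicate 3. Of 34 genes of mitochondrial protein import, a list put together after the values were seen, 6 fell and 0 rose (10 fell with the block). Of the small chaperones of the intermembrane space, Timm8a1 changed by −0.59 (SE 0.11, adjusted p = 0.0158) and Timm10 by −0.49 (SE 0.10, adjusted p = 0.0245). The others were Chchd4 at −0.41, Grpel1 at −0.26, Timm23 at −0.23 and Timm9 at −0.21. The 6 became 3 without control replicate 2, 1 without 2-g replicate 2 and 0 without 2-g replicate 3 or control replicate 1 or 3. Of 69 respiratory chain subunits only Ndufa4 fell, 9 fell with the block, and the median was −0.09. Medians against the same control also lay below zero in 1-g and μ-g. They were −0.04 and −0.08 for mitochondrial ribosomal proteins and −0.04 and −0.08 for the respiratory chain. Mitochondrial protein import had −0.07 in 1-g and −0.08 in μ-g, beside −0.12 in 2-g. The 48 proteasome genes had a median of −0.14, with 45 below zero, 2 falls (Psmc2 at −0.38 and Psmd14 at −0.25) and 14 with the block. The 2 became 4 without 1-g replicate 2, 1 without 2-g replicate 1 or 2 and 0 without 2-g replicate 3, control replicate 1, 2 or 3, 1-g replicate 1 or 3 or μ-g replicate 1, 2 or 3. Mrpl22, Mrps18b, Mrpl55, Mrpl11, Mrpl3, Chchd4, Grpel1, Timm23 and Timm9 each lost the call without at least 1 of the arrays other than 1-g replicate 2 (adjusted p from 0.0514 to 0.172), and Mrps18b and Chchd4 alone of them passed with the 6 arrays. The call of Mrpl2 held without any 1 of the 12 arrays. Timm8a1 and Timm10 lost their calls without 2-g replicate 2 or 3 or control replicate 1 or 3 (adjusted p from 0.0526 to 0.114). Mrpl2 and Timm8a1 passed with the 6 arrays alone, unlike Timm10.

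Precursors of the Mir17 cluster were also on the array. The cluster is a single transcript from chromosome 14 whose microRNAs act in proliferation and growth, and those named miR-18a and miR-19a belong to different seed families. The mature sequences of RefSeq are shown to set the members side by side, grouped by seed, with the seed (bases 2 to 8) in capitals. The array detects the precursor region and not the mature form.
mmu-miR-18a-5p: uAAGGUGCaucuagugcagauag
mmu-miR-17-5p: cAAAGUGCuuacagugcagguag
mmu-miR-20a-5p: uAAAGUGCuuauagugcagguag
mmu-miR-19a-3p: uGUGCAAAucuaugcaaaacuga
mmu-miR-19b-3p: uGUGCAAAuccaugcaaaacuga
Mir18 had 7.54, 7.61 and 7.63 in 2-g, against 8.15, 8.03 and 8.25 in control, a change of −0.55 (SE 0.08, adjusted p = 0.00402). Mir19a had 6.41, 6.31 and 6.40 in 2-g, against 6.98, 6.63 and 6.81 in control, a change of −0.43 (SE 0.09, adjusted p = 0.0285). Neither overlapped with control. Mir17 differed by 0.10 and Mir20a, of the same seed, by 0.03, and Mir19b-1, with the seed of miR-19a, by −0.15. Their averages in 2-g were 5.58 ± 0.04 for Mir17, 5.05 ± 0.14 for Mir20a and 5.11 ± 0.10 for Mir19b-1. The host transcript Mir17hg differed by −0.31 (SE 0.09, adjusted p = 0.0852) and passed with the block (adjusted p = 0.0301). Mir18 averaged 8.14 ± 0.11 in control, 7.62 ± 0.05 in μ-g, 7.54 ± 0.14 in 1-g and 7.59 ± 0.05 in 2-g and so lay below control in all 3 magnet groups. Mir210, a microRNA induced at low oxygen, differed by 0.04 (SE 0.08, adjusted p = 0.898). The call of Mir18 held without any 1 of the 12 arrays. Mir19a lost the call without 2-g replicate 1, 2 or 3 or control replicate 1 or 3 (adjusted p from 0.0544 to 0.0995). With the 6 arrays alone Mir18 passed and Mir19a did not.

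The other positions of the magnet set the 2-g values in context. In 1-g against control 35 genes (0.176%) rose and 29 (0.145%) fell, and in μ-g against control 87 (0.436%) rose and 77 (0.386%) fell. These comparisons share the control arrays with that of 2-g, so their values are given side by side. Of the 39 hypoxia targets 6 fell and 0 rose in 1-g (median −0.35) and 12 fell and 0 rose in μ-g (median −0.34), where 14 rose in 2-g (median 0.44). Ndufa4l2 averaged 9.05 ± 0.93 in control, 6.93 ± 0.14 in μ-g, 7.01 ± 0.21 in 1-g and 10.65 ± 0.32 in 2-g (SD, n = 3 each). Stc1 averaged 8.07 ± 0.41 in control, 7.37 ± 0.12 in μ-g, 7.31 ± 0.09 in 1-g and 9.67 ± 0.07 in 2-g. Control thus lay between 2-g and the other magnet groups, and had the widest spread. Ribosome assembly genes had medians of −0.04 in 1-g and −0.03 in μ-g, with 0 calls in either, beside −0.25 in 2-g. Rpp40 averaged 8.14 ± 0.20 in control, 7.96 ± 0.05 in μ-g, 8.03 ± 0.13 in 1-g and 7.25 ± 0.07 in 2-g. Tet2 averaged 8.18 ± 0.21 in control, 8.29 ± 0.13 in μ-g, 8.22 ± 0.05 in 1-g and 8.90 ± 0.10 in 2-g. For both, the arrays of control, μ-g and 1-g overlapped and those of 2-g lay apart. Gpr84 averaged 8.93 ± 0.40 in control, 8.33 ± 0.29 in μ-g, 8.41 ± 0.36 in 1-g and 7.11 ± 0.24 in 2-g, with differences from control of −0.59 in μ-g (adjusted p = 0.249) and −0.52 in 1-g (adjusted p = 0.432).

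**Figure D4:**
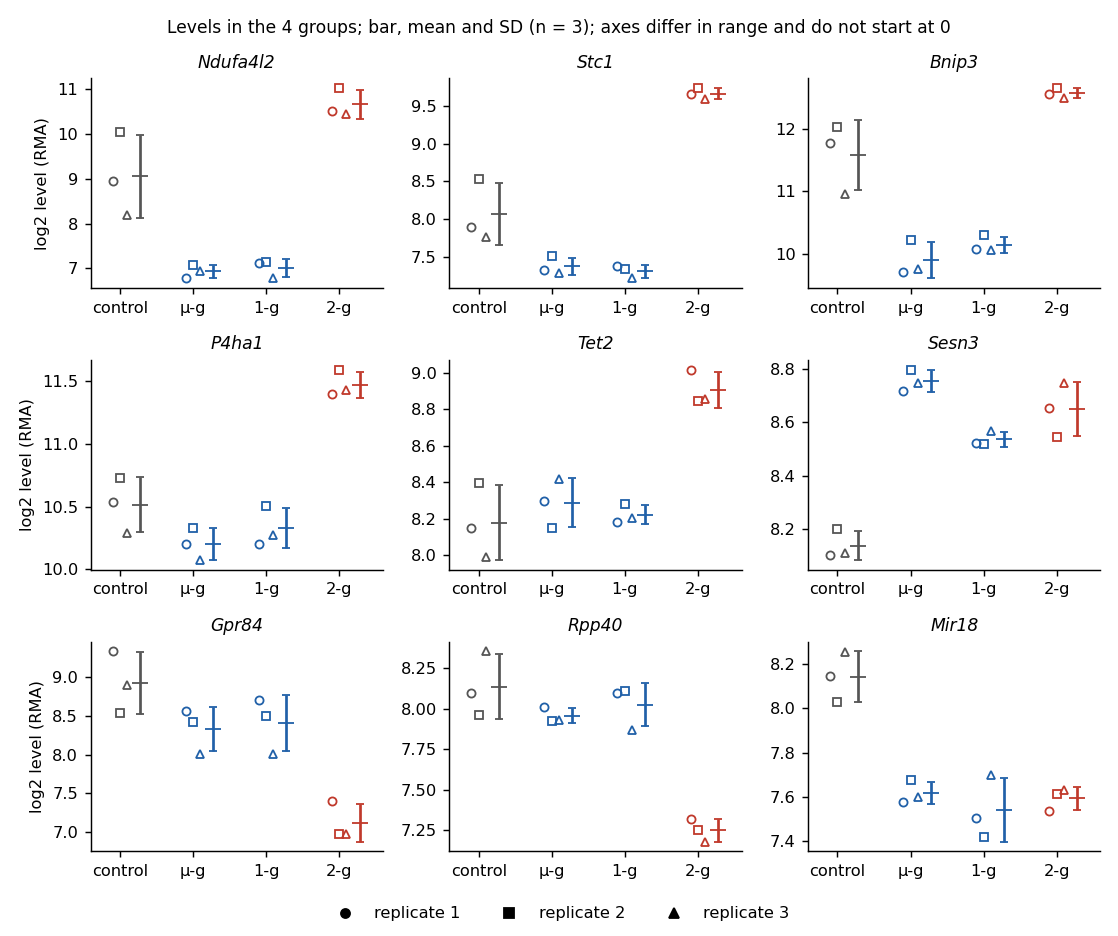
Log2 level (y axis, a range of its own in each panel) of 9 genes on the 12 arrays, by group (x axis: control, μ-g, 1-g and 2-g), with bars for the mean and SD (n = 3) and marker shapes for the replicate number. Ndufa4l2, Stc1 and Bnip3 are lower in μ-g and 1-g than in control and highest in 2-g, P4ha1, Tet2 and Rpp40 are furthest from the other groups in 2-g, Gpr84 is lowest in 2-g, and Sesn3 and Mir18 have like levels in the 3 magnet groups.

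The comparison of 2-g with 1-g, both inside the magnet, tests whether a gene differed with force and field strength while the place of culture was shared. There 251 genes (1.26%) rose and 200 (1.00%) fell, and 640 rose and 870 fell with the block. The 251 rises became 149 without 2-g replicate 2, 147 without 1-g replicate 3, 129 without 2-g replicate 3 and 122 without 1-g replicate 1. The 200 falls became 129 without 2-g replicate 1, 107 without 1-g replicate 3, 64 without 1-g replicate 2, 54 without 2-g replicate 2, 49 without 2-g replicate 3, 46 without 1-g replicate 1 and 81 with the 6 arrays of these groups alone. Field strength still differed, being higher in 1-g. The same 3 arrays of 2-g enter this comparison and that against control, so a like direction in both is not independent evidence. The ribosome assembly list was put together from falls on these 2-g arrays. Of the hypoxia targets 24 rose and 1 fell against 1-g (median 0.84), of glycolysis 12 rose and 0 fell (median 0.46), of the chromatin and RNA dioxygenases 7 rose and 0 fell, and of the ribosome assembly genes 27 fell and 1 rose (median −0.22). Against 1-g Stc1 changed by 2.36 (SE 0.15, adjusted p = 5.2e-05), Ndufa4l2 by 3.64 (SE 0.34, adjusted p = 0.000241) and Rpp40 by −0.78 (SE 0.09, adjusted p = 0.000975). Epas1, which encodes HIF-2α, was lower in 2-g than in 1-g, at −0.58 (SE 0.06, adjusted p = 0.000287), with averages of 8.06 ± 0.10 in control, 8.70 ± 0.04 in μ-g, 8.55 ± 0.03 in 1-g and 7.97 ± 0.06 in 2-g. Not all changes that passed against control passed here. Gpr84 passed at −1.29, Ccl3 at −0.97 and Tnf at −0.55, whereas Clec4e had −0.80 (adjusted p = 0.0943), Crct1 −0.34 (adjusted p = 0.467) and Nqo1 −0.16 (adjusted p = 0.209).

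Some genes moved by like amounts at all positions of the magnet. Against control 12 genes rose and 3 fell in each of 2-g, 1-g and μ-g. Psrc1, a spindle protein and p53 target, averaged 10.06 ± 0.16 in control, 10.60 ± 0.14 in μ-g, 10.60 ± 0.14 in 1-g and 10.59 ± 0.07 in 2-g. Sesn3, a stress-induced restrainer of growth signalling, averaged 8.14 ± 0.05 in control, 8.75 ± 0.04 in μ-g, 8.54 ± 0.03 in 1-g and 8.65 ± 0.10 in 2-g. Their control arrays were the lowest of all groups. The others that rose were Castor2, of growth signalling, Ccng1, D3Ertd751e, Exoc4, Marf1, Mkks, Ppip5k1, Sh3d19, Stxbp4 and Ttll5, with 2-g values from 0.23 to 0.53. The falls were Mir18 at −0.55, Igsf5 at −0.43 and Sat1, which acetylates polyamines, at −0.32 in 2-g. Each value is set against the same 3 control arrays, so the 15 do not show independent effects of the 3 positions. The calls of Sesn3, Castor2, Exoc4, Marf1, Ttll5, Igsf5 and Sat1 held without any 1 of the 12 arrays. Psrc1 and Sh3d19 lost their calls without 2-g replicate 3 or control replicate 1 or 3 (adjusted p from 0.0524 to 0.0921). D3Ertd751e lost the call without 2-g replicate 3 (adjusted p = 0.0569). Stxbp4 lost the call without control replicate 3 (adjusted p = 0.071). Mkks lost the call without 2-g replicate 1, 2 or 3 or control replicate 1 or 3 (adjusted p from 0.0577 to 0.0941). Ccng1 lost the call without any 1 array other than control replicate 2, 1-g replicate 1, 2 or 3 or μ-g replicate 2 (adjusted p from 0.0511 to 0.144). Ppip5k1 lost the call without any 1 array other than 1-g replicate 1, 2 or 3 or μ-g replicate 2 or 3 (adjusted p from 0.0535 to 0.151). Psrc1, Sesn3, Castor2, Exoc4, Marf1, Ttll5, Igsf5 and Sat1 passed with the 6 arrays alone, unlike the others.

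Single genes of growth and stress signalling rose. Of 26 genes listed as p53 targets 4 rose and 0 fell (11 and 2 with the block). Psrc1, which also rose, was not on this list. The 4 were Ccng2, a cyclin of growth arrest that FOXO factors induce, at 0.92 (SE 0.18, adjusted p = 0.0199), Sesn3 at 0.51, Ccng1 at 0.30 and Phlda3 at 0.26. The 4 became 2 without 2-g replicate 2 or μ-g replicate 1 or 3 and 1 without 2-g replicate 3 or control replicate 1 or 3. The list was not higher in 2-g than at the other positions. Its median against control was 0.10 in 2-g, 0.15 in 1-g (2 rose) and 0.13 in μ-g (3 rose). For 2-g against 1-g the median was −0.12. Of 25 genes of the IGF and insulin axis 4 rose and 0 fell (2 without 2-g replicate 3 or control replicate 1 or 3). Pik3r1, the regulatory subunit of PI3 kinase, had 11.75, 11.77 and 11.73 in 2-g, against 11.37, 11.43 and 11.08 in control, a change of 0.45 (SE 0.08, adjusted p = 0.011). Foxo1, the factor that insulin signalling keeps out of the nucleus, had 10.06, 9.94 and 10.20 in 2-g, against 9.63, 9.74 and 9.56 in control, a change of 0.42 (SE 0.07, adjusted p = 0.00839). The groups were apart in both. The receptor Igf1r rose by 0.48 (SE 0.10, adjusted p = 0.0292) and the adaptor Grb14 by 0.32 (SE 0.06, adjusted p = 0.0207). Ulk1, the kinase that starts autophagy, rose by 0.46 (SE 0.06, adjusted p = 0.00305). With Bnip3, 2 of 42 autophagy genes (4.76%) rose, and 1 (2.38%), the cargo receptor Sqstm1, fell, at −0.20. Over all genes 1.68% rose and 1.43% fell. Tgfb2 was the only one of 45 BMP and TGF-β genes (2.22%) that rose, at 0.41 (SE 0.06, adjusted p = 0.00712). Counts of lists put together after the values were seen describe them and are not evidence of direction. Some of these lists also held only rises among their calls. They were semaphorins and plexins, guidance cues and their receptors, with 6 of 29 (10 with the block), Sema6d the largest at 0.41 (SE 0.05, adjusted p = 0.00316) beside Sema3b at 0.38, Plxna3 at 0.35, Sema6b at 0.29, Sema4g at 0.23 and Plxnb2 at 0.21, glycosaminoglycan synthesis, with 5 of 41 (6 rises and 4 falls with the block) and Csgalnact1 the largest at 0.50 (SE 0.10, adjusted p = 0.0197) beside Pxylp1 at 0.38, Xylt2 at 0.26, Fam20b at 0.23 and Ext2 at 0.21, and the transferases that start mucin-type sugar chains, with 3 of 19 (3 rises and 1 fall with the block) and Galnt11 the largest at 0.37 (SE 0.06, adjusted p = 0.00703) beside Galnt13 at 0.27 and Galnt2 at 0.19. Medians were 0.12 for semaphorins and plexins, 0.0099 for glycosaminoglycan synthesis and 0.0055 for these transferases. Above zero lay 22 of 29, 22 of 41 and 10 of 19 values. The 6 semaphorins and plexins became 3 without 2-g replicate 1 and 1 without 2-g replicate 3 or control replicate 1 or 3, the 5 of glycosaminoglycan synthesis 3 without 2-g replicate 1 or 2 and 0 without 2-g replicate 3 or control replicate 1 or 3 and the 3 transferases 1 without 2-g replicate 2 or 3 or control replicate 1 or 3. These smaller rises beside the largest of each list, and the call of Sqstm1, were each lost without 2-g replicate 3 or control replicate 1 or 3, and some without others of the 12 arrays except μ-g replicate 2 (adjusted p from 0.0504 to 0.173), and Sema3b and Pxylp1 alone of them passed with the 6 arrays. The calls of Pik3r1, Foxo1, Ulk1, Tgfb2, Sema6d and Galnt11 held without any 1 of the 12 arrays. Phlda3 lost the call without any 1 array other than control replicate 2 or 1-g replicate 2 (adjusted p from 0.053 to 0.179). Ccng2, Grb14 and Csgalnact1 lost their calls without 2-g replicate 2 or 3 or control replicate 1 or 3 (adjusted p from 0.0532 to 0.0921). Igf1r lost the call without 2-g replicate 1 or 3 or control replicate 1, 2 or 3 (adjusted p from 0.0581 to 0.128). Ulk1, Tgfb2, Sema6d and Galnt11 passed with the 6 arrays alone, unlike Pik3r1, Foxo1, Ccng2, Grb14, Csgalnact1, Igf1r and Phlda3.

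Other genes also changed by large amounts. Abhd18, of unsettled function, had 8.17, 8.50 and 8.05 in 2-g, against 6.99, 7.58 and 7.12 in control, a change of 1.01 (SE 0.16, adjusted p = 0.00741). Rcor2, a corepressor of the CoREST family, had 9.39, 9.71 and 9.44 in 2-g, against 8.46, 8.93 and 8.59 in control, a change of 0.85 (SE 0.11, adjusted p = 0.00344), and the noncoding RNA Dubr had 10.47, 10.38 and 10.12 in 2-g, against 9.64, 9.74 and 9.27 in control, a change of 0.78 (SE 0.12, adjusted p = 0.00741). None of the 3 overlapped with control. Nrn1, a neuronal growth protein on the hypoxia list, changed by 0.97 (SE 0.18, adjusted p = 0.0159). Among the falls, Crct1, a gene of the epidermal differentiation cluster, had 8.33, 7.95 and 8.25 in 2-g, against 9.75, 9.01 and 9.68 in control, a change of −1.30 (SE 0.19, adjusted p = 0.00618), and Arl11, a small GTPase of macrophage activation, had 7.02, 7.02 and 7.14 in 2-g, against 7.73, 7.65 and 7.64 in control, a change of −0.61 (SE 0.08, adjusted p = 0.00316). Neither overlapped with control. Nat8f5, an acetyltransferase with close paralogs that can share probes, changed by −1.04 (SE 0.22, adjusted p = 0.0265), Mcpt8, a basophil granule protease, by −0.80 (SE 0.16, adjusted p = 0.0222) and Sephs2, of selenium use, by −0.58 (SE 0.10, adjusted p = 0.00969). The calls of Abhd18, Rcor2, Dubr, Crct1 and Arl11 held without any 1 of the 12 arrays. Nat8f5 and Mcpt8 lost their calls without 2-g replicate 2 or 3 or control replicate 1 or 3 (adjusted p from 0.0698 to 0.116). Sephs2 lost the call without control replicate 3 (adjusted p = 0.0517). Nrn1 lost the call without 2-g replicate 3 or control replicate 1 or 3 (adjusted p from 0.0569 to 0.0723). Abhd18, Rcor2, Crct1, Arl11, Mcpt8 and Sephs2 passed with the 6 arrays alone, unlike the others.

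Lists of cell identity and of mechanical sensing held few calls. Of 25 osteoblast and osteocyte markers Col1a1 rose and the others did not pass (3 rose with the block). Connexin 43 (Gja1) and podoplanin (Pdpn) are known in this line, with Gja1 at 12.28 ± 0.10 in 2-g and 12.12 ± 0.07 in control and Pdpn at 12.13 ± 0.07 in 2-g and 12.19 ± 0.15 in control. Of the markers of mature osteocytes, Dmp1 averaged 5.62 ± 0.17 in 2-g and 5.65 ± 0.11 in control and Sost 7.28 ± 0.06 in 2-g and 7.35 ± 0.10 in control. Levels of different probes cannot be set against each other, so these values do not tell which markers were absent. Of 18 macrophage markers 1 fell and 0 rose, the tetraspanin Cd53 at −0.57 (SE 0.14, adjusted p = 0.047), and of the defining markers Adgre1 averaged 5.42 ± 0.04 in 2-g and 5.44 ± 0.01 in control and Csf1r 7.29 ± 0.06 in 2-g and 7.38 ± 0.06 in control. The mean level over the 18 ran from 6.34 to 6.39 on the 2-g arrays and from 6.42 to 6.46 on the control arrays, and the part of such cells in the inflammatory falls was not tested. Cd68 differed by −0.40 (SE 0.11, adjusted p = 0.0786) and Lyz2 by −0.16. Of 14 endothelial markers 0 passed and 1 rose with the block. Their values ran from −0.13 to 0.62, with Cdh5 at −0.07 and Pecam1 at −0.13. Of 15 osteoclast markers Ctsk fell, of 14 adipocyte markers Elovl3 fell, at −0.56, and of 18 granule proteases Mcpt8 fell. The osteoclast marker Gpnmb had a difference of −0.94 (SE 0.33, adjusted p = 0.162). Among 28 mechanosensitive channels, connexins and ATP receptors 0 passed at adjusted p, with 3 higher and 3 lower at an unadjusted p under 0.05 and 1 each way with the block, and their values ran from −0.19 to 0.29. Among 25 tropomyosins and contractile actin genes 0 passed either way, also with the block, and 1 was higher and 1 lower at an unadjusted p under 0.05. Of 21 YAP targets 2 rose, Arhgef17 at 0.33 (SE 0.05, adjusted p = 0.00741) and Dlc1 at 0.24, and Tead4 fell, at −0.38. Genes of DNA replication (44), mitosis (55) and DNA repair (36) held 0 calls, with 1, 10 and 0 higher and 9, 0 and 2 lower at an unadjusted p under 0.05. Over all 19938 genes 1724 were higher and 1615 lower at that threshold. A p that misses the threshold does not show that these groups were alike. The call of Arhgef17 held without any 1 of the 12 arrays. Ctsk, Elovl3, Mcpt8 and Tead4 lost their calls without 2-g replicate 2 or 3 or control replicate 1 or 3 (adjusted p from 0.0521 to 0.131). Col1a1 lost the call without 2-g replicate 3 or control replicate 1 or 3 (adjusted p from 0.0682 to 0.0858). Dlc1 lost the call without any 1 array other than 1-g replicate 1, 2 or 3 or μ-g replicate 2 (adjusted p from 0.0502 to 0.141). Cd53 lost the call without any 1 array other than control replicate 2 or μ-g replicate 1 or 2 (adjusted p from 0.0545 to 0.174). Arhgef17 and Mcpt8 passed with the 6 arrays alone, unlike the others.

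The remaining lists held from 0 to 3 calls each, beside 1.68% of all genes that rose and 1.43% that fell. Of 37 focal adhesion and actin regulators Tln2 at 0.31, Tns3 at 0.25 and Limk1 at 0.24 rose and 0 fell, and of 26 integrins Itgb5 at 0.30 rose. Of 31 BCL2 family members and caspases Casp6 at 0.46 rose and Bid at −0.29 and Bak1 at −0.27 fell. Of 46 genes of fatty acid use Pnpla2 at −0.31, a lipase, and Eci1 at −0.23, of fatty acid oxidation, fell with Elovl3. Single calls were those of Oas2 at 0.58 among 27 interferon-stimulated genes, Kremen1 at 0.27 among 49 Wnt genes, Insig2 at 0.32 among 26 cholesterol genes and Dusp5 at −0.33 among 35 immediate early genes. The 41 genes of ATF4 and the unfolded protein response had a median of −0.13 and the single call of Hsp90b1 at 0.25, which rose, but 2 rises and 15 falls with the block. Vascular growth factors and their receptors (45) held Apln and Adm, 12 rises and 0 falls with the block. Acid export (20) held Slc16a3, the clock (23) Rora and the lysosome (49) Ctsk as the only calls. At adjusted p 0 passed of 29 amino acid transporters (1 higher and 7 lower at an unadjusted p under 0.05, 1 and 8 with the block), 38 heat shock proteins (7 higher and 5 lower at an unadjusted p under 0.05, 3 and 2 with the block), 25 Notch genes (5 higher and 0 lower at an unadjusted p under 0.05, 2 and 0 with the block) and 14 regulators of mitochondrial biogenesis (1 higher and 5 lower at an unadjusted p under 0.05, 1 and 3 with the block). Over all 19938 genes 1724 were higher and 1615 lower at that unadjusted threshold. Each of the calls given here with a value was lost without control replicate 1 or 3, and some without others of the 12 arrays (adjusted p from 0.0504 to 0.188), and none passed with the 6 arrays alone.

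**Figure D5:**
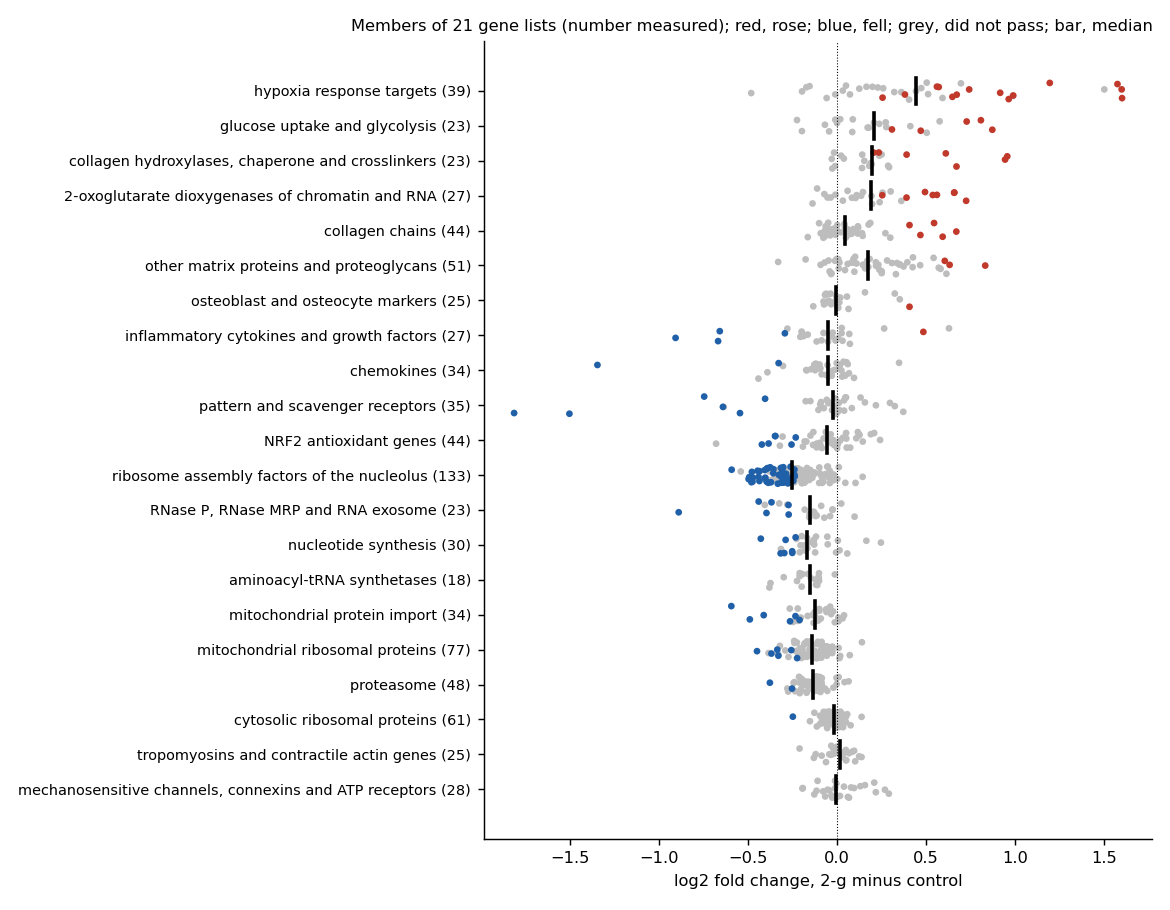
Log2 fold change of 2-g minus control (x axis) of each measured member of 21 gene lists (rows, with the number measured), red where the gene rose, blue where it fell and grey where it did not pass, with a bar at the median. Hypoxia targets, with 14, hold the most rises, and ribosome assembly, with 45, the most falls. Ribosome assembly is the longest of these lists and was put together after the falls were seen, so this rank follows from its making. The lists of RNase P, RNase MRP and exosome, nucleotide synthesis and mitochondrial protein import were also put together after the values were seen.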

How the data were processed

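The platform was the Affymetrix Mouse Gene 1.0 ST array, with 3 arrays for each of 4 groups of MLO-Y4 cells. The authors deposited log2 values, background corrected, quantile normalized and summarised over the probes of each transcript cluster by RMA, with no pooling of arrays. Of 28856 clusters, 21789 carried 1 gene symbol after updating by gene ID, and for the 999 genes with several clusters that of the highest mean was used, which gave 19938 genes. Array medians lay between 7.04 and 7.12, and no arrays were identical.

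All clusters were fitted over the 12 arrays with limma 3.58.1 (lmFit and eBayes) in R 4.3.3 with a mean for each group, with 8 residual degrees of freedom, and p-values were adjusted by Benjamini-Hochberg over the 19938 genes. The fit was tested on simulated data. Arrays of the same replicate number deviated together (r = 0.455, 0.499 and 0.262 between 2-g and control and 0.371, 0.364 and 0.283 between 2-g and 1-g, all over 0.1, against values below 0 for other numbers), so the number was also fitted as a block. The members and the 60 gene lists were chosen with earlier results of these data known, and 10 further lists after the values were seen. Genes were named where they were among the 20 largest rises or falls, the largest called members of a list (all where 5 or fewer were called), their paralogs or defining markers; others in the text were chosen after their values were seen. The authors' threshold, an unadjusted p with a fold change, and other choices of arrays, scaling, filter, prior and cluster were tried as alternatives. Motifs were counted in promoter windows of 300 bases from RefSeq.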

Additional observations from a re-analysis of the deposited data

Results flagged for a closer look

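A signal lay outside the genes compared. Of 7067 transcript clusters with no symbol or several, 59 passed in 2-g against control, 28 of them higher and 31 lower, with log2 fold changes from −0.75 to 1.08 and 5 over 1.5-fold. They were not compared by gene, since their clusters name none of their own.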

How the results depend on the processing

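The counts of 2-g against control moved with the settings. With the 6 arrays alone 151 genes passed (89 rose, 62 fell), with the replicate block 1870 (1008 rose, 862 fell), and among genes above the median level 1014 (534 rose, 480 fell). At an unadjusted p under 0.05 with a fold change over 1.5, the threshold of the methods, 93 passed (66 rose, 27 fell), and over 2-fold 14 did (9 rose, 5 fell). Without 1 array the count of 620 ran from 145 to 660, with rises from 91 to 368 and falls from 54 to 296. For 2-g against 1-g the 451 became 252 with the 6 arrays alone (81 fell), 1510 with the block (640 rose, 870 fell) and 702 above the median level (375 fell), and without 1 array they ran from 168 to 461, with rises from 122 to 253 and falls from 46 to 208. The cause of these shifts was not tested.

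Of 192 named genes that passed, 192 did with the block, 173 with arrays centred on their medians, 177 with a robust prior that follows the level, 180 after quantile normalization, 191 with the mean of all clusters of a gene, 178 among genes above the median level (a filter that drops dim genes) and 68 with the 6 arrays alone, while 55 passed without any 1 array. Values near zero changed sign without 1 array, where their fold changes ran from −0.0357 to 0.0052 for Adgre1, from −0.021 to 0.0191 for Col1a2, from −0.0918 to 0.0637 for Dmp1, from −0.0502 to 0.0228 for Egln2, from −0.0201 to 0.0421 for Hif1a, from −0.0525 to 0.0936 for Mir20a, from −0.1148 to 0.0244 for Pdpn and from −0.008 to 0.0647 for Vegfa. Detection above background was not analysed here, so a low level cannot be told from background.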
